A study of Mus musculus with 12 samples.

Results

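H3K4me3 was followed at 986 regions that lie at an end of a long noncoding RNA gene and away from protein-coding gene ends, out of 24594 merged H3K4me3 regions in mouse mammary tumour organoids. Overlapping peaks of the 6 H3K4me3 libraries on chromosomes 1 to 19 and X were merged. A merged region was kept where it lay within 1 kb of an end of a gene of lncRNA biotype, more than 1 kb from both ends of every protein-coding gene, and either outside protein-coding gene bodies (726 regions) or antisense to the surrounding gene (260 regions). No gene of the biotype ncRNA was present in the annotation used, so every region was at a lncRNA gene. The regions belonged to 974 of 12697 lncRNA genes, 916 regions carried a clone name or a predicted symbol as their nearest gene, and 70 carried a named symbol.

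The cells were organoids derived from PyMT tumours, a mouse model in which a viral oncoprotein drives mammary cancer, with the genotype labelled WT in every group. They had been treated with Ctrl, SR2 or THC and were collected 3 days later. What SR2 stands for, what the Ctrl treatment consisted of and how many tumours or lines were used are not given in the sources used here. H3K4me3 and H3K27me3 were each profiled by CUT&Tag, in which an antibody directs a transposase to cut and tag the DNA around a histone mark, with 2 replicates per group and 500000 cells per library. Replicates 1 and 2 correspond to batches 1 and 2 of the labels, and nothing says that replicates came from separate tumours, so a p-value here covers the spread of these libraries only.

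H3K4me3 is a histone mark laid down around active and poised transcription starts, and its strength and breadth follow how often a promoter is used. Long noncoding RNAs do not code for protein. Some act in the nucleus on chromatin or nuclear bodies, some exist mainly as hosts whose introns or exons are cut into small nucleolar RNAs (snoRNAs) or microRNAs, and many have no known role. H3K27me3, laid down by Polycomb complexes, marks silenced genes.

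Peak numbers and summit pileups differed between libraries, whose read totals are unknown. Among the H3K4me3 libraries the Ctrl lists had 18383 and 16442 peaks, the SR2 lists 14812 and 15189, and the THC lists 11924 and 13227 (pairs of values are for replicates 1 and 2 throughout). The median pileup at peak summits, recovered from the authors' values, was 62 and 58 reads for Ctrl, 36 and 54 reads for SR2, and 21 and 44 reads for THC, and the first THC library also had the fewest peaks. Summit pileup rises with the mark's own signal as well as with depth. The lowest background pileup, recovered in the same way, was 1.05 and 1.02 for Ctrl, 1.16 and 1.10 for SR2, and 0.752 and 1.52 for THC, so the first THC library was lowest by both measures while the second THC library had the highest background. All 6 luminal epithelial marker genes had a peak in every library except the first THC library, where 4 did. Of 4 basal epithelial genes 2 had a peak in every library except the first THC library, which had none, and Trp63 and Acta2 had none in any library. Of 4 fibroblast genes 1 had a peak in each library, of 3 endothelial genes at most 1, and of 3 blood genes at most 1. Since the mark was measured in bulk, fewer cells carrying it and less of it per cell cannot be told apart.

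Among the noncoding regions were those of 19 genes that hold 37 microRNA genes, whose mature microRNAs have 64 different seeds. The microRNAs printed here are the ones whose host regions the results turn on. Sequences are from RefSeq (GRCm38.p6), written 5′ to 3′, with the seed (bases 2 to 8), the part that pairs with target mRNAs, in capitals.
miR-200b-3p (host Gm13648): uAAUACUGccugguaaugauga
miR-429-3p (host Gm13648): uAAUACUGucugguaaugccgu
miR-200a-3p (host Gm13648): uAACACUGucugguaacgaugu
miR-183-5p (host Mirc35hg): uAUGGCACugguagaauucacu
miR-96-5p (host Mirc35hg): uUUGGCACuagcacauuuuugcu
miR-182-5p (host Mirc35hg): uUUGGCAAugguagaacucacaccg
miR-205-5p (host Mir205hg): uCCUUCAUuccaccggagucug
miR-31-5p (host Gm49890): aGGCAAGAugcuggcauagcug
miR-22-3p (host Mir22hg): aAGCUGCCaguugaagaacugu
miR-15a-5p (host Dleu2): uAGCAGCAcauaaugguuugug
miR-16-5p (host Dleu2): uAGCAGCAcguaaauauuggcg
miR-322-5p (host C430049B03Rik): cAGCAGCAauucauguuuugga
let-7b-5p (host Lncppara): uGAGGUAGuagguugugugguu
let-7c-5p (host Lncppara): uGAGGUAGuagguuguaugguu

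These fall into groups by seed. miR-200b-3p and miR-429-3p share AAUACUG, and miR-200a-3p has AACACUG. miR-15a-5p, miR-16-5p and miR-322-5p share AGCAGCA although they come from hosts on different chromosomes. Both let-7 microRNAs share GAGGUAG.

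The windows around 5 noncoding starts, from 250 bases before to 50 bases after the start, show the range of promoters in the set. Gm13648, Mir22hg and Xist had a peak in every library, Mir205hg lacked one in the first SR2 and first THC libraries, and LOC115486907 lacked one in both THC libraries. Capitals mark matches on either strand to the TATA motif TATAAA, to the GC box GGGCGG, to CCAAT or to the cAMP response element TGACGTCA.
Gm13648, minus strand, chr4:156059753-156060052: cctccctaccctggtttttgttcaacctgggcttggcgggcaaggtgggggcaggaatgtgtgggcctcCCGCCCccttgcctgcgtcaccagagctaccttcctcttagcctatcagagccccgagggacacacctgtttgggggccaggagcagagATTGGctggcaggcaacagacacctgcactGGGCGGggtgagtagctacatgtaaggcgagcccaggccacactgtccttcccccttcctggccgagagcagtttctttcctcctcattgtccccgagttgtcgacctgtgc
Mir205hg, minus strand, chr1:193510161-193510460: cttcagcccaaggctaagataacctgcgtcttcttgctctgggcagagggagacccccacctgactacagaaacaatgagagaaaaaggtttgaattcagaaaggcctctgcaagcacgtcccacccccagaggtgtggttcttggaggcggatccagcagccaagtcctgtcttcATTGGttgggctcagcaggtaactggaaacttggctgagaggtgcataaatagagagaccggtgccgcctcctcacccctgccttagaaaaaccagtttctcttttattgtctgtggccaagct
Mir22hg, plus strand, chr11:75461289-75461588: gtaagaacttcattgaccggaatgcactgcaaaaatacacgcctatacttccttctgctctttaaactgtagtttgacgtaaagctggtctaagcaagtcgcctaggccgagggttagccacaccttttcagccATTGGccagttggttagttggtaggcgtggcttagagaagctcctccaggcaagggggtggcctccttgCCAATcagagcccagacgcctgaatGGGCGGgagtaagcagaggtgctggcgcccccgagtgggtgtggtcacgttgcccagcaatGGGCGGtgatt
Xist, minus strand, chrX:103483184-103483483: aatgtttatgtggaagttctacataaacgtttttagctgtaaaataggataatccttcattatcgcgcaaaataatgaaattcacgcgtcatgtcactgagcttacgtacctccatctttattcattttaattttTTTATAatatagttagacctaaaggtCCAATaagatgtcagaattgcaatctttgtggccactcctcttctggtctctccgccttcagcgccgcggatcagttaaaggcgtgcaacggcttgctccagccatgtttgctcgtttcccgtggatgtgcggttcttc
LOC115486907, minus strand, chr8:127441236-127441535: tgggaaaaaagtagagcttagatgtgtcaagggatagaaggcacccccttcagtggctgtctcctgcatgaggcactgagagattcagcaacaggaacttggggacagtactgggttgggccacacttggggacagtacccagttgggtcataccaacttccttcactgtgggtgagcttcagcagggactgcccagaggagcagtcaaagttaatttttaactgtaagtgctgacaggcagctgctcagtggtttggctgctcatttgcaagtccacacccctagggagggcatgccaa

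The ratio of observed to expected CpG dinucleotides was 1.18 in the Xist window, 0.541 in the Mir22hg window, 0.316 in the Gm13648 window, 0.244 in the Mir205hg window and 0 in the LOC115486907 window, which holds no CpG at all. The Gm13648 and Mir22hg windows hold GC boxes and CCAAT, the Xist window holds the TATA motif and CCAAT, the Mir205hg window holds CCAAT only, and the LOC115486907 window holds none of the 4 motifs.

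The label of the set, starts of noncoding genes, was checked against gene strand. Strand was known for 826 of the 986 regions, and 671 of these (81.2%) had an annotated noncoding start within 1 kb, while 155 were near the other end only. The share with a start was 226 of 243 (93.0%) for regions marked in all 6 libraries and 197 of 288 (68.4%) for regions marked in 1. A start lay inside the region itself in 414 of the 986. The distance limit left similar regions on either side: 79 regions at 801 to 1000 bp from the nearest noncoding end had a median covered length of 190 bp in Ctrl, and 63 at 1001 to 1200 bp had 206 bp. In contrast, 480 regions that contained a noncoding end had a median of 814.5 bp.

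Of the 260 antisense regions, 130 lay within 1 kb of an internal protein-coding start of the surrounding gene, and 97 of these 130 were marked in all 6 libraries. CUT&Tag reads carry no strand, so at these 130 regions the mark of the noncoding start cannot be told apart from that of the coding start. Of the 986 regions 600 were more than 10 kb from every protein-coding gene end, and 50 of these 600 were among the 130 at an internal coding start.

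Noncoding regions were less regularly marked than protein-coding ends, and more regularly than regions inside protein-coding genes or intergenic ones. A peak was present in all 6 libraries at 258 of the 986 (26.2%), and in a single library at 355 (36.0%). Over all 24594 merged regions the shares were 41.2% and 35.9%. The single-library share was 6.86% at protein-coding ends, 55.7% inside protein-coding genes and 73.1% in intergenic regions. Among regions at protein-coding ends 8577 of 11238 (76.3%) had a peak in all 6 libraries, as did 1028 of 6658 regions inside protein-coding genes (15.4%) and 109 of 4426 intergenic regions (2.46%). Of the 355 noncoding regions marked in 1 library, 170 were marked in the first Ctrl library, 64 in the second, 46 and 35 in those of SR2 and 16 and 24 in those of THC. Another 80 regions had a peak in every library but the first THC library.

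Marked noncoding regions were narrower and ranked lower than marked protein-coding ends in every library. The median covered length, meaning the bp of a region that peaks of a library covered, was 706 and 706 bp in Ctrl, 735 and 737 bp in SR2 and 695 and 729.5 bp in THC. At protein-coding ends it was 1196 and 1133 bp in Ctrl, 1024 and 1098 bp in SR2 and 814 and 998 bp in THC. The noncoding median was thus nearly level across libraries while the protein-coding one was lowest in THC. The difference, noncoding minus protein-coding, was -325.75 ± 131 bp (mean and SD of the difference over 6 libraries, lower in 6 of 6, exact two-sided sign-flip p = 0.03125, the smallest that 6 libraries allow). Over regions marked in all 6 libraries the difference was -16.9 bp (exact p = 0.281).

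The rank of a region was the percentile of its strongest peak within the library's own list, by the authors' −log10 q. Its median over marked noncoding regions was 34.5 and 32.6 with Ctrl, 33.7 and 29.6 with SR2, and 33.9 and 30.8 with THC. At protein-coding ends the median ranks were 67.3 and 64.8 with Ctrl, 63.3 and 62.5 with SR2, and 59.2 and 59.9 with THC. The gap was -30.3 ± 2.96 percentile points (SD over 6 libraries, lower in 6 of 6, exact sign-flip p = 0.03125).

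**Figure D1:**
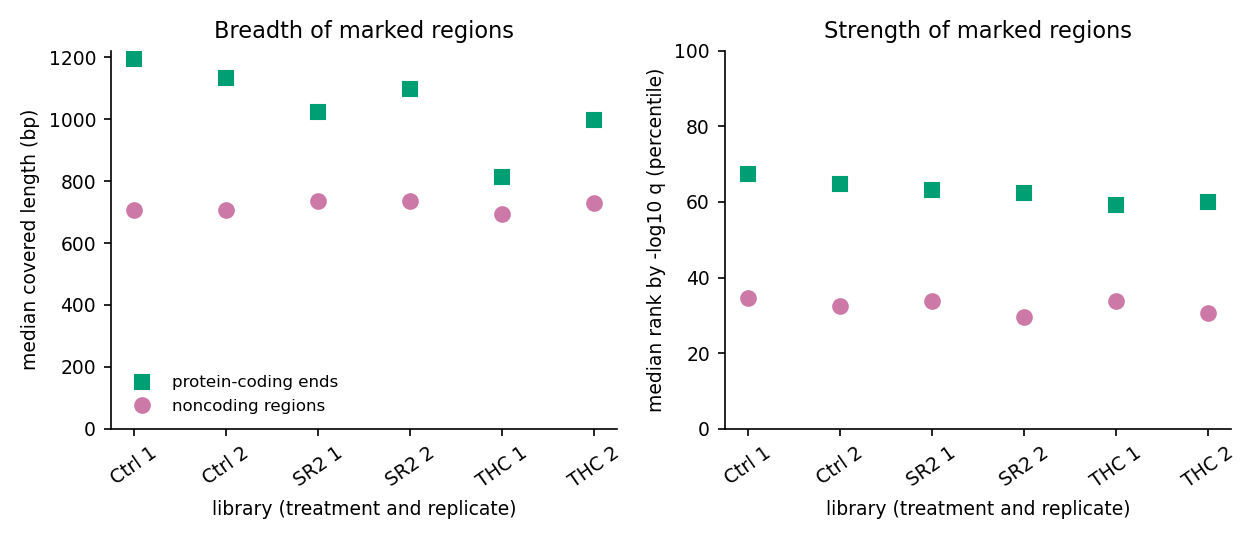
Median covered length in bp (left) and median rank by −log10 q within the library (right) of marked regions in each of the 6 H3K4me3 libraries. In all 6 libraries the noncoding regions (circles, 695 to 737 bp) lie under the protein-coding ends (squares, 814 to 1196 bp), and their ranks lie between 29.6 and 34.5 against 59.2 to 67.3.

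CpG content followed how regularly a start was marked. Around 226 noncoding starts at regions marked in all 6 libraries the median ratio of observed to expected CpG was 0.713. It was 0.378 around 248 starts at regions marked in 2 to 5 libraries and 0.308 around 197 starts at regions marked in 1 library. Around 10579 starts of lncRNA genes with no region in this set it was 0.235. Those genes were not all unmarked, since some, such as Gas5 and Tug1, had a region at a protein-coding end. The median over 21045 protein-coding starts was 0.574. Leaving out regions with a protein-coding start within 1 kb, 134 windows at constantly marked regions had a median of 0.698. These values are descriptions over starts, with no test.

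**Figure D2:**
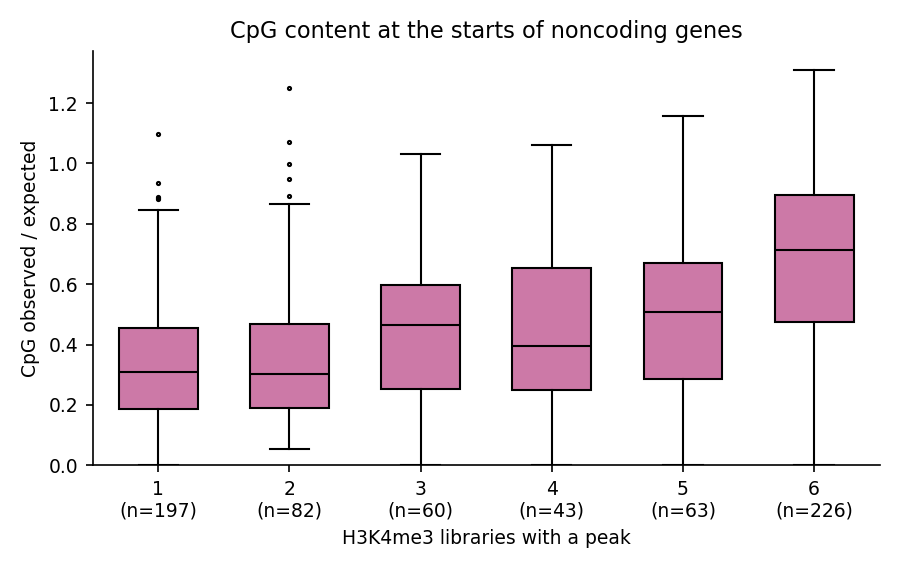
Observed to expected CpG ratio in the window around a noncoding start, by the number of H3K4me3 libraries with a peak at its region. Boxes show quartiles and the median, whiskers reach 1.5 times the box height, and points lie beyond them. Medians were 0.308 for 1 library, 0.302 for 2 and 0.713 for all 6.

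The GC box was present in 57.1% of the windows at constantly marked regions, in 22.3% at regions marked once, and in 35.7% of the 32851 windows of the whole table. The TATA motif was found in 9.73% and 13.2% of the same noncoding windows and in 13.6% of all windows, CCAAT in 36.7%, 31.0% and 37.4%, and the cAMP response element in 2.65%, 0% and 1.79%. Thus the GC box differed most between constantly and singly marked starts, while CCAAT was about as frequent as in the whole table.

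The number of noncoding regions with a peak was lower in the treated libraries. Ctrl peaks were present at 784 and 638 of the 986 regions, SR2 peaks at 458 and 565, and THC peaks at 294 and 416. Every treated library lay below both Ctrl libraries, and the SR2 and THC libraries did not overlap each other. The ratio to Ctrl was 0.719 for SR2 (0.584 in batch 1 and 0.886 in batch 2) and 0.499 for THC (0.375 and 0.652), and the ratio of THC to SR2 was 0.694 (0.642 and 0.736). With 2 libraries against 2 the exact permutation p was 0.333 for each, the smallest possible, and for both treatments together against Ctrl the ratio was 0.609 with an exact p of 0.133, also the smallest possible, so these differences cannot pass a threshold of 0.05. Both comparisons with Ctrl share the same control libraries.

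Noncoding regions also made up a smaller share of all marked regions after treatment. The share was 4.28% and 3.94% for Ctrl, 3.16% and 3.78% for SR2, and 2.57% and 3.21% for THC. The ratio of the share to Ctrl was 0.844 for SR2 and 0.703 for THC, with an exact permutation p of 0.333 for both. Protein-coding ends fell less in number, to 0.941 of Ctrl in SR2 and 0.860 in THC. When the same number of strongest peaks was taken from each library, the ratio of noncoding regions marked was 0.967 for SR2 and 0.860 for THC. The order of the libraries by noncoding regions marked was also their order by peak number. The first THC library had the lowest summit pileup as well as the fewest noncoding regions, and without it the THC ratio was 0.585.

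**Figure D3:**
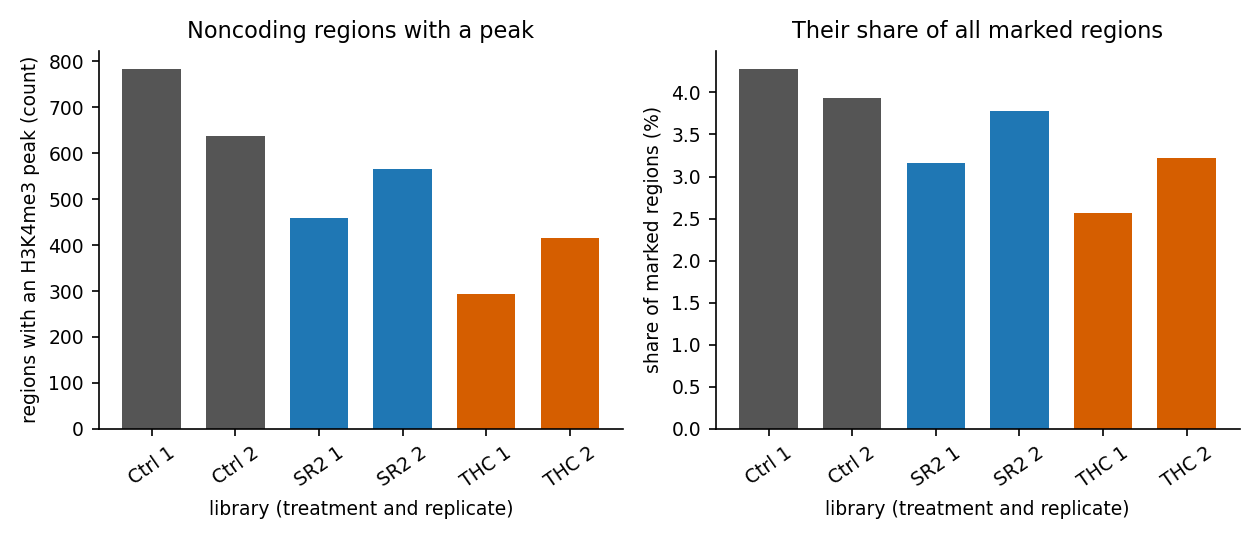
Noncoding regions with an H3K4me3 peak (left, count of 986) and their share of all marked regions in % (right) in each library. The Ctrl bars (784 and 638) are the highest and the THC bars (294 and 416) the lowest, and the share ranges from 2.57% to 4.28%.

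The number of regions marked in both libraries of one group and in neither of the other was counted next. Both Ctrl libraries marked 562 noncoding regions, and 73 of them (13.0%) were unmarked in both SR2 libraries, where the share over all regions was 7.84%. For THC, 166 of the 562 (29.5%) were unmarked in both libraries, against 17.5% over all regions. By kind of region, the shares for SR2 and THC were 2.11% and 6.81% at protein-coding ends, 19.2% and 38.9% inside protein-coding genes, and 33.4% and 62.3% in intergenic regions, so the noncoding shares lay between those of protein-coding ends and of the other two. In the other direction, 4 of 388 regions marked in both SR2 libraries had no Ctrl peak (1.03%, against 0.255% over all regions), and 0 of 262 marked in both THC libraries had none (0.108% over all regions). Between treatments, 41 of the 388 SR2 regions lacked a THC peak (10.6%, against 5.08%) and 0 of the 262 THC regions lacked an SR2 peak (0.127% over all regions). Losses therefore outnumbered gains in both comparisons with Ctrl.

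These counts depended on list length and on single libraries. The counts in this paragraph show only how far they moved with the setting. No share over all regions is given for these settings, so nothing particular to noncoding regions can be read from them. With equal lists 8 regions had a peak in Ctrl only against SR2 and 27 against THC. Requiring a peak in 1 library of a group by leaving out the other gave 137 without the first Ctrl library, 247 without the second and 173 without the second SR2 library in the comparison with SR2, and 379 without the second Ctrl library and 285 without the second THC library in that with THC. For SR2 against THC the count was 170 without the first SR2 library, 106 without the second SR2 library and 123 without the second THC library. The few gains moved further: regions marked in SR2 and not in Ctrl numbered 40 without the first SR2 library, 50 without the second, 12 without the first Ctrl library and 6 without the second. Regions marked in THC and not in Ctrl numbered 25 without the first THC library and 16 without the second, and those marked in THC and not in SR2 numbered 29 and 19, and 4 without the second SR2 library.

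Peaks absent after treatment were more frequent among regions that ranked low in Ctrl. The 562 regions marked by both Ctrl libraries were split by their mean Ctrl rank. Up to rank 25, 63 of 141 noncoding regions (44.7%) had no SR2 peak and 107 (75.9%) no THC peak, where all regions of that range gave 48.3% and 82.6%. From rank 25 to 50 the counts were 10 of 239 (4.18%) for SR2 and 59 (24.7%) for THC, against 4.58% and 23.0% of all regions. Above rank 50 none of the 182 noncoding regions lost its peak in both libraries of either treatment. Protein-coding ends lost peaks at 34.7% (SR2) and 75.4% (THC) up to rank 25, and at 2.15% and 15.3% from rank 25 to 50. In these ranges the noncoding share was near that of all regions, and above that of protein-coding ends except for THC up to rank 25, where the values were close.

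**Figure D4:**
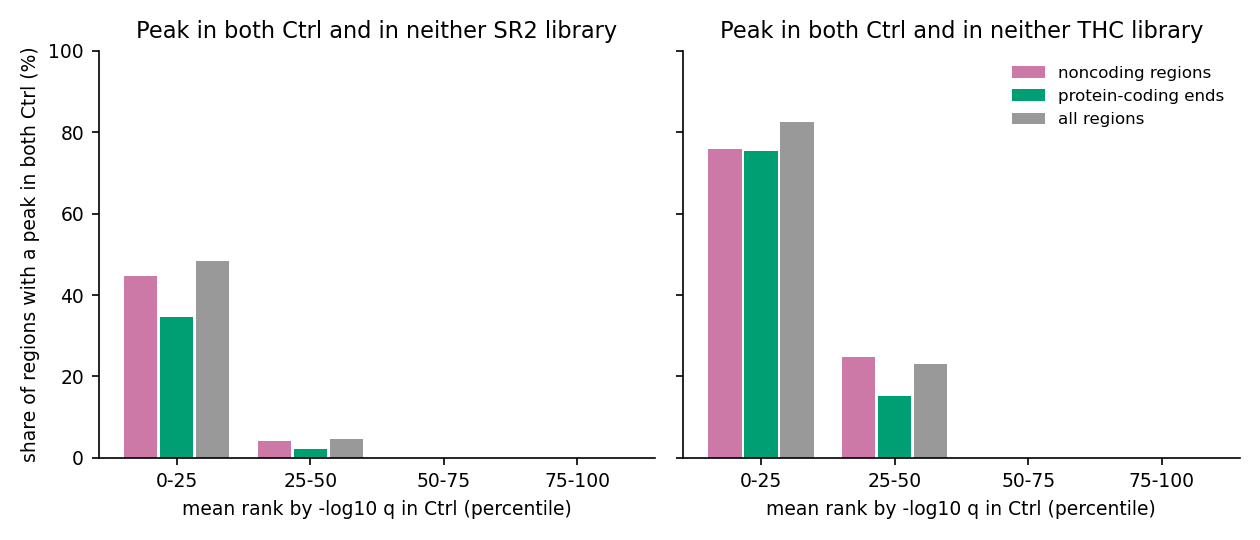
Share in % of regions marked by both Ctrl libraries that neither SR2 library (left) or neither THC library (right) marked, by mean rank in Ctrl as a percentile of −log10 q. Up to rank 25 noncoding regions (44.7% and 75.9%) lie near all regions (48.3% and 82.6%), and no noncoding region above rank 50 was lost.

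Breadth was compared region by region with limma on log2(covered bp + 200), with libraries centred on their median over regions marked in all 6. Of the 986 noncoding regions 631 had a peak in at least 2 libraries and entered the fit over 15771 regions. Among these were 69 that both Ctrl libraries and no treated library marked, which passed the filter through Ctrl alone. No region of any kind passed an adjusted p of 0.05 in any of the 3 comparisons (0% of all regions; smallest adjusted p 0.122 for SR2 and 0.128 for THC, each against Ctrl, and 0.318 between the treatments, limma with Benjamini-Hochberg adjustment). At an unadjusted limma p under 0.05, 82 noncoding regions were narrower and 8 wider in SR2 than in Ctrl (13.0% and 1.27% of the 631, against 8.91% and 0.653% of all regions tested). From Ctrl to THC the counts were 171 and 12 (27.1% and 1.90%, against 18.4% and 4.41%), and from SR2 to THC 58 and 5 (9.19% and 0.792%, against 6.84% and 1.84%). The narrower counts include regions that the filter admitted through Ctrl alone, for which narrowing was fixed. Over the 258 noncoding regions marked in all 6 libraries, 6 were narrower and 4 wider in SR2 (2.33% and 1.55%, against 1.86% and 0.70% of all regions marked in all 6), 29 and 12 in THC (11.2% and 4.65%, against 5.80% and 6.71%), both against Ctrl, and 17 and 5 from SR2 to THC (6.59% and 1.94%, against 4.19% and 2.73%).

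The median log2 difference over the 631 regions was -0.15 from Ctrl to SR2, -0.63 from Ctrl to THC and -0.20 from SR2 to THC, beside -0.03, -0.15 and -0.03 over all regions tested. Over the 258 noncoding regions marked in all 6 libraries the medians were 0.01, -0.03 and -0.01. Without centring, the median of all regions shifted to -0.17, -0.52 and -0.27 for the same comparisons. The number of noncoding regions past the adjusted threshold depended on settings. In comparisons with Ctrl it can include regions that the filter admitted through Ctrl alone, for which narrowing was fixed. For SR2 against Ctrl it was 69 without centring (10.9% of those tested, against 6.30% of all regions under the same setting) and 74 with 50 bp added in place of 200 (11.7% against 6.71%). For THC against Ctrl it was 108 without centring (17.1% against 12.1%), 96 with 50 bp added (15.2% against 8.98%), 122 when only the Ctrl and THC libraries were fitted (21.3% against 13.0%) and 105 without the second THC library (16.7% against 14.0%). For THC against SR2 it was 62 without the second THC library (9.89% against 7.60%).

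The hosts of snoRNAs were constantly marked. snoRNAs guide chemical changes on ribosomal RNA and are cut from the introns of these genes. Of 21 listed host genes 11 had a noncoding region (Snhg3, Snhg4, Snhg5, Snhg7, Snhg8, Snhg12, Snhg15, Snhg16, Snhg17, Snhg20 and Dancr), 8 others, among them Gas5 and Snhg1, had a region at a protein-coding end or in a coding gene, and 2 had none. All 11 were marked in all 6 libraries. The share was 26.2% over all 986 noncoding regions and 52.9% over the 70 with a named symbol. It was 41.2% over all merged regions and 76.3% at protein-coding ends. The median covered length of the 11 hosts was 1542 and 1489 bp in Ctrl, 1351 and 1340 bp in SR2, and 822 and 1285 bp in THC.

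Snhg5 covered 2005 and 1603 bp in Ctrl, 1445 and 1335 bp in SR2, and 1257 and 1372 bp in THC. Snhg15 covered 2043 and 1903 bp in Ctrl, 1849 and 1917 bp in SR2, and 738 and 1620 bp in THC. Snhg4 covered 1606 and 1759 bp in Ctrl, 1316 and 1397 bp in SR2, and 357 and 1155 bp in THC. At Snhg15 and Snhg4 the lowest value came from the first THC library, which had the lowest pileup. None of the 11 passed even an unadjusted limma p of 0.05 in any comparison, and their median log2 difference was 0.05 for SR2 against Ctrl and -0.07 for THC against Ctrl.

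Many snoRNA hosts are known to start with C followed by a run of pyrimidines, the sequence that ties translation of ribosomal protein mRNAs to nutrient signals. Of the 10 hosts with a window in the table, 2 (Snhg7 and Snhg8) had at the annotated start a run of at least 4 pyrimidines whose first base was C, beside 3.76% of all windows. Snhg12 had a run of 6 whose first base was T. The 10 windows were rich in CpG, with ratios from 0.649 at Dancr to 1.26 at Snhg5.

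The genes that hold microRNAs divided into constantly and irregularly marked ones. They were picked after the values had been seen, by taking every noncoding gene of the set with a microRNA inside it. Of their 19 regions 17 and 15 had a peak in Ctrl libraries, 12 and 15 after SR2 treatment and 8 and 12 with THC, and 8 of 19 (42.1%) were marked in all 6 libraries, beside 26.2% of the noncoding regions and 41.2% of all regions. Of the 16 regions that entered the limma fit none was narrower at an unadjusted p under 0.05 in any comparison. After centring 1, the main region of E130102H24Rik (host of miR-101a), was wider in each of the comparisons with Ctrl. It covered 1327 and 1437 bp in Ctrl, 1578 and 1508 bp in SR2, and 1185 and 1512 bp in THC. Its THC values thus overlapped those of Ctrl before centring. Over all regions tested, 8.91% were narrower and 0.653% wider in SR2, and 18.4% and 4.41% in THC.

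Gm13648 holds Mir200a, Mir200b and Mir429, microRNAs that repress the Zeb factors and so maintain epithelial cell contacts. Its region covered 1479 and 1712 bp in Ctrl, 1450 and 1518 bp in SR2, and 1282 and 1503 bp in THC, with overlap between the groups. The limma difference was 0.05 ± 0.11 (log2, SE) for SR2 against Ctrl and 0.20 ± 0.11 for THC against Ctrl. Mirc35hg holds Mir182, Mir96 and Mir183, a cluster active in epithelial and sensory cells. It covered 2014 and 2009 bp in Ctrl, 1788 and 1975 bp in SR2, and 1629 and 1888 bp in THC, and ranked between the 89.4th and the 97.2nd percentile of each library. Gm13648 ranked between the 60.2nd and the 84.1st percentile. Both of these hosts were thus marked in every library, while other microRNA hosts, among them Mir205hg and Gm49890, were not.

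Mir205hg is the host of miR-205, a microRNA abundant in basal and progenitor cells of the mammary epithelium. Its region (chr1:193508082-193510481) covered 2400 and 1771 bp in Ctrl, 0 and 1127 bp in SR2, and 0 and 654 bp in THC. It was high in both Ctrl libraries and lower in all 4 treated ones, and in batch 1 neither treated library had a peak. The log2 difference was -1.997 ± 0.96 (SE, limma adjusted p = 0.705) for SR2 against Ctrl and -2.08 ± 0.96 (limma adjusted p = 0.259) for THC against Ctrl, so the difference did not exceed the spread between replicates by this test. Its rank in Ctrl was 40.2 and 37.6, in the range where other regions also lost peaks, and basal marker genes, at 2 of 4 in the other libraries, were at 0 of 4 in the first THC library. Their part in the result was not tested.

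Dleu2, host of the miR-15a and miR-16 microRNAs that hold back the cell cycle and Bcl2, covered 2092 and 2027 bp in Ctrl, 1892 and 2205 bp in SR2, and 1636 and 1892 bp in THC. Mir22hg, host of miR-22, covered 2313 and 2162 bp in Ctrl, 1846 and 1790 bp in SR2, and 1401 and 2105 bp in THC. C430049B03Rik, whose Mir322 gives the same seed as miR-15a and miR-16, covered 1079 and 897 bp in Ctrl, 500 and 748 bp in SR2, and 0 and 563 bp in THC. Hosts of microRNAs with a shared seed therefore differed in how regularly they were marked.

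Gm49890, host of miR-31, covered 504 and 285 bp in Ctrl, 0 and 339 bp in SR2, and 0 bp in both THC libraries. Lncppara, host of let-7b and let-7c-2, had 1186 and 0 bp in Ctrl, 0 and 486 bp in SR2, and 0 bp in both THC libraries. C130071C03Rik, host of miR-9-2, covered 1041 and 1037 bp in Ctrl, 0 and 967 bp in SR2, and 0 and 687 bp in THC. Gm36493 (Mir146b), Mirg and Mir670hg were each marked in 1 library only. The Mirg peak lay 527 bp beyond the far end of the gene and 15004 bp from its annotated start. Of the 19 microRNA host genes listed by name, 6 were in the set, 8 had no region and 5 were not in the gene table.

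RNAs of nuclear bodies and chromatin followed. Neat1, the scaffold of paraspeckles, covered 2516 and 2694 bp in Ctrl, 1480 and 1618 bp in SR2, and 772 and 2191 bp in THC. All 4 treated values lay under both Ctrl values, with the THC replicates far apart, and the log2 difference was -0.54 ± 0.31 for SR2 and -0.50 ± 0.31 for THC against Ctrl (limma adjusted p = 0.832 and 0.364). Firre, an X-linked RNA that contributes to nuclear organisation, covered 1346 and 1390 bp in Ctrl, 1108 and 1220 bp in SR2, and 325 and 674 bp in THC. Its groups did not overlap, and the THC difference was -0.83 ± 0.16 (limma adjusted p = 0.128).

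Malat1, an abundant RNA of nuclear speckles, had 2 regions of the set, and the wider one covered 524 and 294 bp in Ctrl, 0 and 418 bp in SR2, and 0 and 323 bp in THC. Tug1 and Kcnq1ot1 had regions at a protein-coding end or within a coding gene, and Miat and Meg3 had none. From the X inactivation centre, Xist, which coats and silences an X chromosome, covered 2192 and 1891 bp in Ctrl, 1407 and 1517 bp in SR2, and 670 and 1328 bp in THC. The 3 groups did not overlap, and the differences were -0.29 ± 0.17 for SR2 and -0.58 ± 0.17 for THC against Ctrl (limma adjusted p = 0.846 and 0.144). Jpx, an activator of Xist, was marked in all 6 libraries over 561 to 938 bp, and Ftx had no region.

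Among imprinted genes, Airn, which silences Igf2r on the paternal chromosome and lies antisense in it, covered 1587 and 1508 bp in Ctrl, 1376 and 1393 bp in SR2, and 974 and 1442 bp in THC. Mirg had a peak in the second Ctrl library only, beyond the far end of the gene and not at its start. H19, Meg3 and Rian had no region. None of 9 noncoding genes of the Hox loci had a noncoding region. The only listed catalytic or small structured RNA of the lncRNA biotype in the set was the vault RNA gene Vaultrc5, which covered 994 to 1181 bp in 5 libraries and had no peak in the first THC library.

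Regions of RNAs linked to growth, p53 and tumours included several that covered fewer bp in all treated libraries than in both Ctrl libraries. Neat1, Xist, Airn, Snhg5 and Dancr showed the same order, so it was not particular to this list. The share of all regions with this order was not counted. Without centring, the median log2 difference over all regions tested was -0.17 for SR2 and -0.52 for THC against Ctrl. The list held 14 symbols, of which 4, Cyrano and Linc-pint among them, were not in the gene table. A region in the set was found for 8 genes, 4 of them marked in all 6 libraries, and 7 entered the limma fit. At an unadjusted limma p under 0.05, 2 of the 7 were narrower in SR2 and 4 in THC than in Ctrl (against 8.91% and 18.4% of all regions tested), none was wider, and none passed the adjusted threshold. The median log2 difference over the 7 was -0.44 for SR2 and -0.63 for THC against Ctrl, beside -0.03 and -0.15 over all regions tested.

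Pvt1, the neighbour of the Myc oncogene, covered 1644 and 1291 bp in Ctrl, 592 and 472 bp in SR2, and 341 and 639 bp in THC. All treated values were under 640 bp and all Ctrl values above 1290 bp, with log2 differences of -1.05 ± 0.21 for SR2 and -0.92 ± 0.21 for THC (limma adjusted p = 0.122 and 0.128). Lockd, which lies beside the cell cycle inhibitor gene Cdkn1b, covered 2367 and 2310 bp in Ctrl, 1168 and 1435 bp in SR2, and 840 and 1333 bp in THC. Its differences were -0.62 ± 0.11 for SR2 and -0.63 ± 0.11 for THC (limma adjusted p = 0.122 and 0.128), and THC and SR2 overlapped.

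Morrbid, which controls survival of short-lived blood cells through its neighbour Bcl2l11, covered 1342 and 1001 bp in Ctrl, 625 and 804 bp in SR2, and 0 and 271 bp in THC, a log2 difference of -1.77 ± 0.37 for THC against Ctrl (limma adjusted p = 0.128). Norad, which binds Pumilio proteins and protects chromosome stability, covered 958 and 643 bp in Ctrl, 331 and 418 bp in SR2, and 0 and 345 bp in THC. Both had all treated values under both Ctrl values. Trp53cor1 (lincRNA-p21), a p53 target, was irregular, at 488 and 0 bp in Ctrl, 397 and 520 bp in SR2, and 0 and 411 bp in THC.

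Lncpint, another p53 target, covered 2247 and 2057 bp in Ctrl, 1906 and 1917 bp in SR2, and 1271 and 1837 bp in THC. Oip5os1, which contains a site that leads to destruction of miR-7, covered 1198 and 1193 bp in Ctrl, 1060 and 1193 bp in SR2, and 743 and 892 bp in THC. All treated values of Lncpint also lay under both Ctrl values. The log2 differences of Lncpint and Oip5os1 from Ctrl were between -0.08 and 0.06 after centring. The heart-linked RNA Bvht was marked in the first Ctrl library only.

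**Figure D5:**
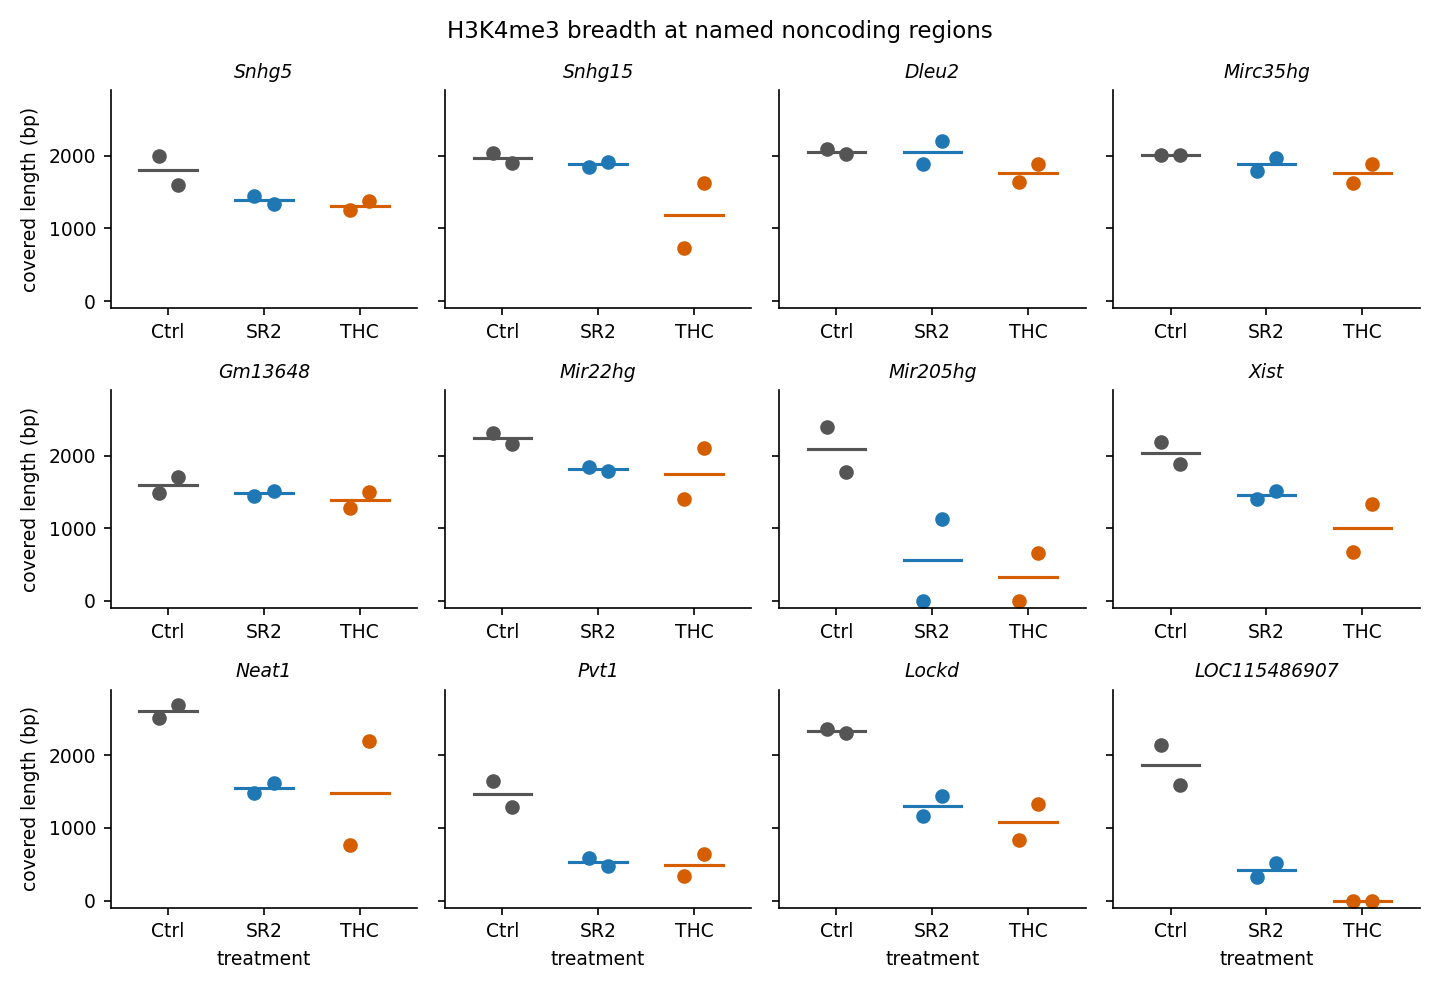
Covered length in bp at 12 noncoding regions, with 1 point per library (replicate 1 left, replicate 2 right) and a line at the mean of each treatment. Dleu2, Mirc35hg and Gm13648 stay above 1280 bp in all libraries, Pvt1 and Lockd are lower in all 4 treated libraries than in both Ctrl libraries, and Mir205hg and LOC115486907 reach 0 bp in some treated libraries.

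The broadest regions of the set were mostly antisense ones at an internal coding start. Of the 10 with the largest mean covered length, 8 were antisense with a protein-coding start inside the region (Gm20554 in Irx2, Gm12536 in Ptpn3, Gm15327 in Map3k1, 1700016A09Rik in Gse1, Gm9958 in Ankrd17, Gm32255 in Egr2, 4930456A14Rik in Atxn2l and Gm38560 in Txnrd1). Gm20554 had the largest mean over the 6 libraries, at 2712 and 2619 bp in Ctrl, 2545 and 2203 bp in SR2, and 1280 and 2420 bp in THC. In Ctrl alone 1700016A09Rik, at 2945 and 2830 bp, and Gm32255, at 2966 and 2494 bp, had larger means. The other two were Dleu2 and B330016D10Rik, which covered 1921 to 2127 bp in the 6 libraries. All 10 were marked in all 6 libraries.

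Of the 166 regions that Ctrl marked and THC did not, LOC115486907 covered most in Ctrl. It lies antisense in Pard3, a gene of cell polarity, and covered 2137 and 1598 bp in Ctrl, 326 and 520 bp in SR2, and 0 bp in both THC libraries. Its nearest protein-coding start was 139515 bp away, so no coding start shared the region, and the log2 difference for THC was -2.98 ± 0.33 (limma adjusted p = 0.128). Gm31242 covered 1469 and 1213 bp in Ctrl, 824 and 1372 bp in SR2, and 0 bp in both THC libraries. The next 8 by Ctrl breadth (1700066J03Rik, Gm4610, Gm40832, 5930430L01Rik, Gm41693, Gm52312, 2410080I02Rik and Gm33126) averaged from 1051.5 to 1243.5 bp in Ctrl, and 4 of them (Gm4610, Gm40832, 5930430L01Rik and 2410080I02Rik) also had no peak in the first SR2 library.

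The 73 regions without an SR2 peak had a median Ctrl covered length of 422.5 bp, and the 166 without a THC peak 500 bp, while the remaining regions marked by both Ctrl libraries had medians of 950.5 and 1061.25 bp. The 10 broadest of the 73 averaged from 581.5 to 688.5 bp in Ctrl. All 10 also lacked a peak in both THC libraries, as did 69 of the 73, so this was not particular to the broadest. Among the 10 was Wincr1, a target of Wnt signalling, with 935 and 408 bp in Ctrl. The 4 regions marked in both SR2 libraries and in no Ctrl library were Gm42116 (443 and 458 bp), Gm52698 (324 and 487 bp), Gm33195 (293 and 493 bp) and Gm40703 (264 and 326 bp), and none of them had a THC peak.

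The smallest limma p of the whole fit for THC against Ctrl belonged to 6530402F18Rik, a gene with no role known here. It covered 1982 and 1696 bp in Ctrl, 1486 and 1572 bp in SR2, and 405 and 645 bp in THC, so THC lay apart from both other groups. The log2 difference was -1.13 ± 0.10 from Ctrl (limma adjusted p = 0.128) and -1.03 ± 0.10 from SR2 (limma adjusted p = 0.318).

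H3K27me3 peaks overlapped few H3K4me3 regions, and this was not particular to noncoding regions. Of the 986 regions 35 overlapped an H3K27me3 peak in at least 1 H3K27me3 library and 11 in at least 2. The matching counts over all regions are not given, but the shares per library are. Per library, 25 and 7 noncoding regions were overlapped for Ctrl, 12 and 3 for SR2, and 12 and 3 for THC, which was 2.54% and 0.710%, 1.22% and 0.304%, and 1.22% and 0.304% of them. Over all H3K4me3 regions the shares were 3.56% and 0.565% for Ctrl, 1.73% and 0.305% for SR2, and 1.64% and 0.248% for THC. The H3K27me3 lists held from 70 to 2708 peaks, and within each treatment the first replicate had the longer list, so the overlap followed list length.

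AY036118 and LOC115490388 had peaks of both marks in all 6 libraries of each. In the second THC library, whose H3K27me3 list held 70 peaks, 61 of all H3K4me3 regions overlapped one. Whether such overlaps reflect both marks on the same chromatin was not tested. At AY036118 H3K4me3 covered 1007 and 830 bp in Ctrl, 1139 and 1095 bp in SR2, and 873 and 1162 bp in THC, and H3K27me3 covered 1134 to 1179 bp of it. Gm40371, 1180 bp from a protein-coding start, had an H3K27me3 peak in 5 libraries and an H3K4me3 rank between 96.68 and 99.96.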

How the data were processed

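Data were 12 CUT&Tag libraries, 6 for H3K4me3 and 6 for H3K27me3, with 2 replicates in each of 3 treatments. Per the submitters' processing notes the tools included MACS3, Bowtie2 2.5.4, bedtools, cutadapt 5.2, SAMtools 1.8, deepTools and Picard, in no stated order, and the build was mm10. Per the file headers and peak names the deposited lists hold 1 library each, so peaks were not called on pooled samples. The deposited score of each peak came from the authors' caller. The authors' fold enrichment is a ratio to the caller's background within a library. The authors' −log10 p and −log10 q of each peak were used as deposited, only to rank or filter peaks within a list. Read totals are unknown. Whole summit pileups were recovered from fold enrichment and −log10 p within a tolerance of 0.005.

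Peaks were merged at an overlap of 1 bp, and covered bp per region and library were counted (Python 3.11.15, pandas 2.3.3). Gene ends, biotypes, starts and sequences were from RefSeq tables of GRCm38.p6, the build mm10 names. Strand was taken from the promoter table, which lacks some genes and chromosome 18. Marker and role lists, the members and the tests were chosen with earlier results of these data known. Named regions are those of the role lists, the 10 broadest, up to 10 per direction marked in 1 group only, the 5 smallest p of each comparison, and up to 10 overlapping H3K27me3. Breadth was tested with limma 3.58.1 in R 4.3.3 with a mean-variance trend over all 15771 regions marked in at least 2 libraries, and checked on simulated data, where the differences put in were recovered in size but no changed region passed the adjusted threshold, so its absence of calls does not show that changes of that size were absent. Single values were tested by exact permutation (scipy 1.17.1). Same-numbered libraries share a batch label, which pairs them. Their deviations from the group means correlated at -0.062 (Ctrl and SR2), 0.034 (Ctrl and THC) and 0.048 (SR2 and THC).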

Additional observations from a re-analysis of the deposited data

How the results depend on the processing

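Counts of noncoding regions marked in one group only depended on list length, the breadth required and single libraries. With equal peak lists, Ctrl-only regions numbered 8 against SR2 and 27 against THC, THC-only regions 2 against Ctrl and 3 against SR2, and SR2-only regions 12 against THC. With at least 500 bp covered, Ctrl-only regions numbered 34 against SR2 and 96 against THC, and 1 was SR2-only against Ctrl. The SR2-only count against Ctrl was also 1 with −log10 q of at least 5 and 2 with gene ends within 500 bp. With gene ends within 2 kb, 2 regions were THC-only against Ctrl and 2 against SR2. Leaving out a library gave 73 to 247 and 166 to 379 Ctrl-only regions against SR2 and THC, 4 to 50 and 41 to 170 SR2-only regions against Ctrl and THC, and 0 to 25 and 0 to 29 THC-only regions against Ctrl and SR2. No share over all regions is given under these settings, so the counts show dependence on settings and nothing particular to noncoding regions. The cause was not tested.

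The breadth gap to protein-coding ends was -16.9 bp over regions marked in all 6 libraries. Without 1 library it was -367.1 to -292.9 bp, and the rank gap -31.3 to -29.8, but 5 libraries allow no p under 0.0625. Counts of limma calls against Ctrl can include regions that the filter admitted through Ctrl alone. Noncoding regions past the adjusted limma threshold, 0 in each comparison, numbered 74 with 50 bp added and 69 without centring for SR2. For THC against Ctrl they numbered 96 and 108, 6 with regions marked in at least 1 library included, 122 with only the 4 libraries compared, and 0 to 105 without 1 library. Between treatments they numbered 0 to 62 without 1 library. The replicate block gave 0 in each comparison and changed no call. No result reversed in direction. Leaving out regions near an internal protein-coding start was chosen after seeing the data, and gave ratios of regions marked of 0.672 for SR2 and 0.428 for THC.

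Peak lists say only whether the caller's threshold was passed, so an absent peak in a shallower library is not absence of the mark.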
